A study of Mus musculus with 14 samples.

Results

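Me1, Scd1 and their companions form the route by which a cell makes fatty acids from citrate and then lengthens and desaturates them. The set comprised 10 named genes, Me1, Scd1, Scd2, Fasn, Acaca, Acly, Elovl5, Elovl6, Fads1 and Fads2, out of 22180 genes named by a probe set with 1 gene symbol. Each of 9 had exactly 1 such probe set, and all 9 lay above the filter on dim genes. Scd2 shares its only named probe set with a microRNA gene, Mir5114, and is not reported. The members were picked by name with their K289R minus WT differences already known, above all those of Me1 and Scd1, so these differences are given as a description.

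Jejunum was taken from 7 mice with the genotype label LRH-1 K289R and from 7 labelled LRH-1 WT, and each mouse gave 1 array. All were 19 to 21 weeks old, fed ad libitum and killed at 7 am, with no other agent or allele in the labels, which name neither sex, litter nor cage for a mouse. LRH-1 is the nuclear receptor encoded by Nr5a2, and K289R replaces a lysine, a known attachment site for the small modifier SUMO, by arginine. The comparison asks how transcript levels of the jejunum differ in mice that carry the altered receptor. Array medians ran from 168 to 174 on the linear intensity scale, and 18010 genes were tested. Of these, 8 passed limma's test at an adjusted p of 0.05, 3 higher and 5 lower in K289R.

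The defining genes of absorptive epithelium were bright on every array. The mean log2 level of 10 enterocyte genes was 13.31 to 13.43 in K289R and 13.26 to 13.42 in WT. The title of the series has the word hepatic, whereas the mean of 6 tested hepatocyte genes was only 7.06 to 7.38 in K289R and 7.21 to 7.33 in WT. On 4 arrays the ileal gene Fabp6 stood between 9.18 and 12.52, against 6.09 to 6.63 on the other 10. These were K289R replicates 2 and 7 and WT replicates 1 and 6. WT replicate 1 also had the highest mean of the 17 tested cholesterol synthesis genes, 10.38, with 9.32 to 9.61 on the other WT arrays and 9.38 to 9.70 on the K289R arrays. Because whole pieces of tissue were used, fewer cells of a type and less RNA per cell cannot be told apart.

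In the cytosol ATP-citrate lyase (Acly) splits citrate into acetyl-CoA, acetyl-CoA carboxylase 1 (Acaca) turns this into malonyl-CoA, and fatty acid synthase (Fasn) builds palmitate from it. The reductions need NADPH, part of which comes from cytosolic malic enzyme (Me1). Elovl6 and Elovl5 are elongases of saturated and of polyunsaturated chains, Scd1 is a delta-9 desaturase that makes oleate and palmitoleate, and Fads1 and Fads2 are the delta-5 and delta-6 desaturases of polyunsaturated acids. In liver and fat these genes are classical targets of the transcription factors SREBP-1c and ChREBP, and Me1 is in addition a target of the oxidative stress factor NRF2. In the small intestine dietary fat supplies most of the lipid that enterocytes package, and synthesis there is a smaller source.

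Windows at annotated starts of 4 members are shown: Me1 as the member with the largest difference, Acaca and Elovl6 as those with letters of the LRH-1 type, and Fasn as the synthase itself. RefSeq (GRCm38.p6) gave 8 promoter windows for 7 of the 10 members. Each window printed here runs from 250 bases before to 30 bases after the annotated start, and capitals mark every match, on either strand, to CAAGGTCA or CAAGGCCA (LRH-1 type), TCACNCCAC (SREBP type), CACGTG (E-box), CCAAT, or TGACNNNGC (NRF2 type).
Me1 (chr9:86695885-86696164, minus strand): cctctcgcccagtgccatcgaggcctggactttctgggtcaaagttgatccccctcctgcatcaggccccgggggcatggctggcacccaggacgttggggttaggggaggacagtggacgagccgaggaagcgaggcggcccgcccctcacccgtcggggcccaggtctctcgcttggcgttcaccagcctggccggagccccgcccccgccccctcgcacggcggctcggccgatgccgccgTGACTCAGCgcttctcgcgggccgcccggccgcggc
Acaca (chr11:84195188-84195467, plus strand): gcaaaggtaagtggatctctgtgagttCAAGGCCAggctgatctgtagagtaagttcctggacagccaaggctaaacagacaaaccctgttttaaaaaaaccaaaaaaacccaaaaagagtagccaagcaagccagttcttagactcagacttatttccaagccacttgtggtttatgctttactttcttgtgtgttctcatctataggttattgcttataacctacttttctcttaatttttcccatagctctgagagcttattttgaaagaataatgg
Elovl6 (chr3:129532136-129532415, plus strand): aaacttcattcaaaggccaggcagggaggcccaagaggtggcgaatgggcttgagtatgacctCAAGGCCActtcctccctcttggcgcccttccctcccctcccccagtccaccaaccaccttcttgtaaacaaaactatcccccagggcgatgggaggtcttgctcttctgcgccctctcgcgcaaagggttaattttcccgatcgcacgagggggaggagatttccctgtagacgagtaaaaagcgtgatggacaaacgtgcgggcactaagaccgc
Fasn (chr11:120824518-120824797, minus strand): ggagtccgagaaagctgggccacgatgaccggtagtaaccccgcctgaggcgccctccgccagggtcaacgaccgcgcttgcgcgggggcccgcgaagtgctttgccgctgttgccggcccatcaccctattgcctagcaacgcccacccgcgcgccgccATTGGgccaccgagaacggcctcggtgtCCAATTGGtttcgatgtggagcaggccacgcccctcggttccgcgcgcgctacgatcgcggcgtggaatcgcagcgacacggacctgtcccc

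The Me1 window held the NRF2 type letters TGACTCAGC, which begin at −6 from the start, a match found in 11.5% of all 32851 RefSeq windows of this length. Acaca and Elovl6 held the LRH-1 type letters CAAGGCCA, which begin at −223 in Acaca and −187 in Elovl6, a match found in 3.64% of all windows. Fasn held CCAAT on either strand 3 times, 2 of them overlapping, and CCAAT in either direction was present in 36.1% of windows. Of the windows not printed, that of Elovl5 held CACGTG at −161 (6.79% of all windows) and CCAAT letters, and the second window of Me1 held CCAAT letters. No member window held the SREBP type letters, which 1.18% of all windows did. A match to letters is a description of these windows and says nothing about binding. Whether the annotated starts, that of Acaca among them, are used as promoters in jejunum was not tested. Repeated sequence was not masked, so a match in a window, or in the share over all windows, may lie in a repeat.

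Me1 had the largest difference of the members. Its log2 intensity (probe set 17529398, chromosome 9) had a lowest, median and highest value of 8.76, 9.20 and 10.10 on the K289R arrays, against 7.90, 8.39 and 9.22 on the WT arrays. Its mean was 9.30 ± 0.45 in K289R and 8.36 ± 0.46 in WT (SD, n = 7 each), a difference of 0.94 (SE 0.207, 95% interval 0.51 to 1.38) or 1.92-fold. All 7 K289R arrays lay above the WT mean. The genotypes overlapped through a single WT array, replicate 1, at 9.22, which exceeded 4 of the K289R arrays. The other 6 WT arrays reached 8.52 at most, below the lowest K289R array. Without WT replicate 1 the difference was 1.09 (SE 0.179), and Me1 was then past limma's threshold over all genes (adjusted p = 0.0364). This was 1 of 28 alternative settings; over all 28 limma's adjusted p ran from 0.0364 to 0.267 (0.129 as fitted) and the difference from 0.81 to 1.09. On the 10 arrays with low Fabp6 the difference was 0.94 (SE 0.157).

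Scd1 came next and was the most variable member within a genotype. Its log2 intensity (probe set 17365098, chromosome 19) was 10.74, 11.54 and 12.15 (lowest, median, highest) in K289R, against 9.90, 10.92 and 11.98 in WT. The mean was 11.54 ± 0.46 in K289R and 10.98 ± 0.62 in WT (SD, n = 7 each), and the difference 0.56 (SE 0.250, 95% interval 0.03 to 1.09). The ranges overlapped widely, since WT replicate 1 lay above 6 of 7 K289R arrays and K289R replicate 6 was lower than 6 WT arrays. Within a genotype Scd1 had an SD of 0.55, wider than that of 99.6% of the genes tested, and Me1 one of 0.45, wider than 99.2%. Scd1 has close paralogs, and how much of its signal their transcripts contribute was not tested.

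**Figure D1:**
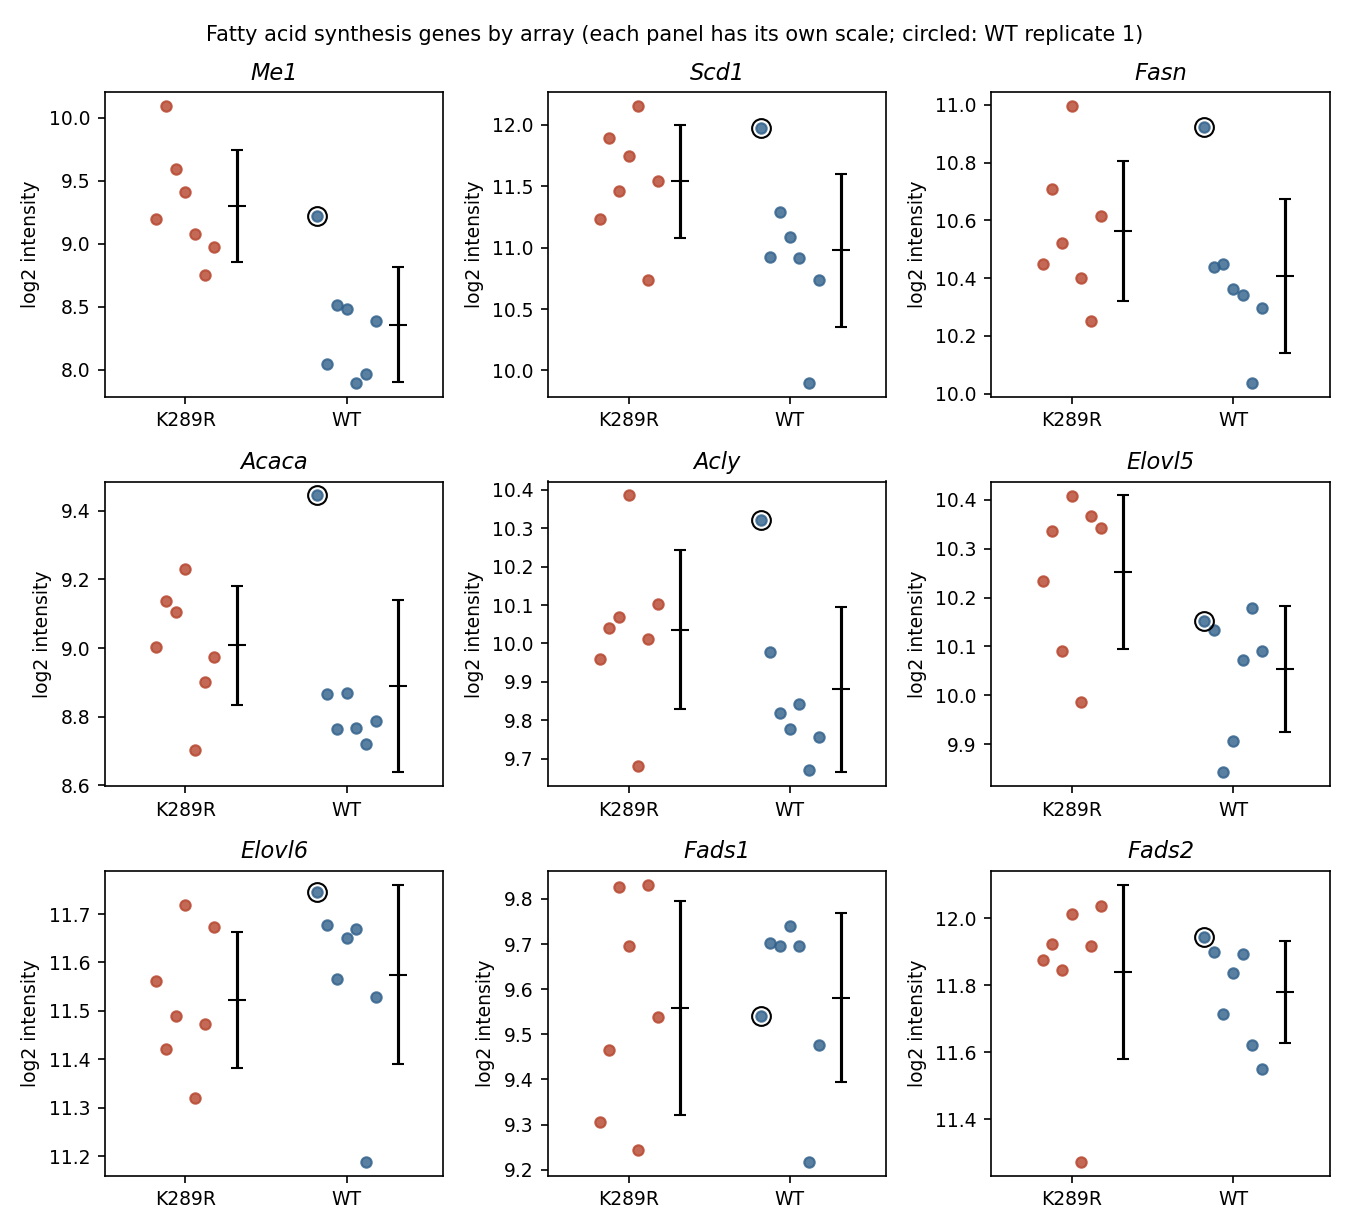
Log2 intensity of the 9 measured genes on each array, with K289R on the left and WT on the right of each panel, the mean ± SD (n = 7) as a black bar and WT replicate 1 circled. For Me1 the circled array, at 9.22, is the only WT array above 8.76, the lowest K289R value, and for the other genes the genotypes overlap further.

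The genes of the main synthesis steps differed less. Fasn was 10.25, 10.52 and 11.00 (lowest, median, highest log2 intensity) in K289R and 10.04, 10.36 and 10.92 in WT, a difference of 0.16 (SE 0.120). Acaca was 8.70, 9.003 and 9.23 in K289R and 8.72, 8.79 and 9.44 in WT, a difference of 0.12 (SE 0.103). Acly was 9.68, 10.04 and 10.39 in K289R and 9.67, 9.82 and 10.32 in WT, a difference of 0.16 (SE 0.102). In each of these the highest WT array was replicate 1 and the lowest replicate 6. Acaca on WT replicate 1 was higher than on any K289R array, while its other 6 WT arrays stayed between 8.72 and 8.87. Without WT replicate 1 the differences were 0.24 (SE 0.102) for Fasn, 0.21 (SE 0.073) for Acaca and 0.23 (SE 0.086) for Acly. Without WT replicate 6 they were 0.09 (SE 0.116), 0.09 (SE 0.108) and 0.12 (SE 0.105) in that order. Leaving out the highest WT array must raise a difference and leaving out the lowest must reduce it, so nothing is read from these shifts.

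Among the elongases and the desaturases of polyunsaturated acids, Elovl5 had the largest difference. Elovl5 was 9.99, 10.34 and 10.41 (lowest, median, highest log2 intensity) in K289R and 9.84, 10.09 and 10.18 in WT, and 5 of 7 K289R arrays lay above every WT array. The difference was 0.20 (SE 0.074, 95% interval 0.04 to 0.35). Elovl6 averaged 11.52 ± 0.14 in K289R and 11.57 ± 0.19 in WT (SD, n = 7 each), a difference of −0.05 (SE 0.082). Fads1 differed by −0.02 (SE 0.102) and Fads2 by 0.06 (SE 0.102). For these 3 genes the 95% intervals were −0.23 to 0.12, −0.24 to 0.19 and −0.16 to 0.28, so changes within those bounds could not be told from none. Fads1 took the opposite sign in 5 of 28 alternative settings.

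**Figure D2:**
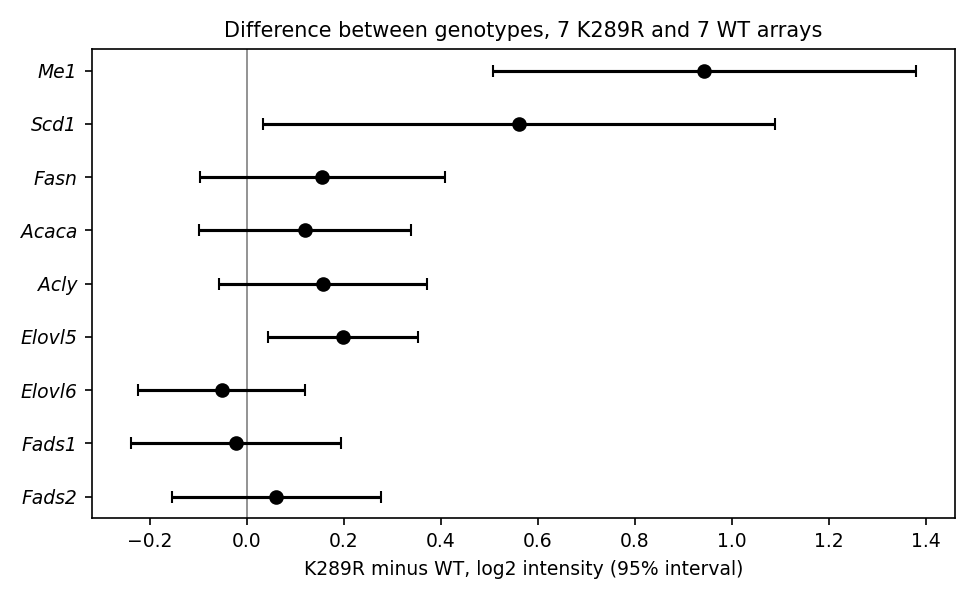
Difference in log2 intensity, K289R minus WT, of each gene (point) with its 95% interval from limma (line), 7 K289R and 7 WT arrays. Me1 at 0.94 and Scd1 at 0.56 stand farthest to the right, and Elovl6 and Fads1 lie slightly left of 0.

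In all, 7 of the 9 measured members had a higher mean in K289R, where 48% of all tested genes did, and the median difference was 0.16 over the members and −0.0039 over all genes. With limma 0 of the 9 passed at an adjusted p of 0.05 (0.0444% of all genes passed). At an unadjusted p under 0.05 there were 3, Me1, Scd1 and Elovl5, all higher (8.48% of all genes had such a p, 4.43% of all genes with a higher mean in K289R). No member separated the genotypes completely (0.167% of all genes did). Since the members were chosen with these differences known, nothing is read from these counts. Without WT replicate 1, 6 of the 9 had an unadjusted p under 0.05 by limma, as did 8.46% of all genes in that fit. In the other alternative settings it was 1 to 4 of the 9. That array was the highest WT array for 7 of the 9 members, so leaving it out lowers their WT means. Nothing is read from this count either.

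The genes around the pathway did not share the size of the Me1 difference. Of 20 tested genes of other elongation and synthesis steps 12 were higher and 8 lower in K289R, with a median of 0.02, and 0 passed limma's test (3 at an unadjusted p under 0.05). These 3 were the elongase genes Elovl4 (0.13, SE 0.046) and Elovl7 (0.20, SE 0.084) and the dehydratase gene Hacd4 (0.23, SE 0.087). Of 12 genes that supply acetyl-CoA, citrate or NADPH, 5 were higher and 7 lower, with a median of −0.03. In that group 0 passed and 1 had an unadjusted p under 0.05, the dicarboxylate carrier gene Slc25a10 (−0.14, SE 0.064). The citrate carrier gene Slc25a1 differed by −0.08 (SE 0.056), the acetate-activating enzyme gene Acss2 by 0.07 (SE 0.078) and Pgls, of the pentose phosphate route, by −0.10 (SE 0.055).

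Among 18 tested regulators of lipogenesis 7 were higher and 11 lower, with a median of −0.02. Insig2, whose product holds SREBP precursors in the endoplasmic reticulum, was the only gene of these past limma's threshold. It was higher by 0.63 (SE 0.105, limma adjusted p = 0.0343), with 10.59 to 11.01 in K289R and 9.74 to 10.54 in WT. It passed in 3 of 14 fits that left out 1 array, those without K289R replicate 6, WT replicate 1 or WT replicate 5, and lies on the chromosome of Nr5a2. Srebf1, the gene of SREBP-1, averaged 9.18 ± 0.15 in K289R and 9.29 ± 0.14 in WT (SD, n = 7 each), a difference of −0.11 (SE 0.074). Mlxipl, the ChREBP gene, differed by −0.02 (SE 0.062), the LXR gene Nr1h3 by 0.05 (SE 0.058), Insig1 by 0.13 (SE 0.148), the lipogenic cofactor gene Thrsp by 0.11 (SE 0.121) and Nr5a2 itself by −0.14 (SE 0.092). Rxra, the partner receptor of LXR and PPAR, was at −0.16 (SE 0.068) and Ppara at −0.12 (SE 0.070).

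Downstream and neighbouring groups were centred near 0. The 14 tested genes of fatty acid activation and esterification had a median of −0.04, with Lpin1, a phosphatidate phosphatase gene, at 0.11 (SE 0.050) and the acyltransferase gene Mogat2 at −0.10 (SE 0.048). The 11 genes of fatty acid oxidation had one of −0.0050, with the dehydrogenase gene Acadvl at −0.15 (SE 0.077). The list of 17 cholesterol synthesis genes had one of 0.0035, with the sterol transfer gene Stard4 at 0.10 (SE 0.080) and Mvd at −0.11 (SE 0.104). Stard4 is in this list although it does not encode an enzyme of synthesis. The NRF2 list of 14 genes had one of −0.02, with Nqo1 at −0.14 (SE 0.094), Hmox1 at 0.07 (SE 0.045) and Nfe2l2, the NRF2 gene, at −0.09 (SE 0.055). Besides target genes this list holds Nfe2l2 and Keap1, which regulate them. In these 4 groups 0 genes passed limma's test, and 1, 0, 0 and 0 in that order had an unadjusted p under 0.05.

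**Figure D3:**
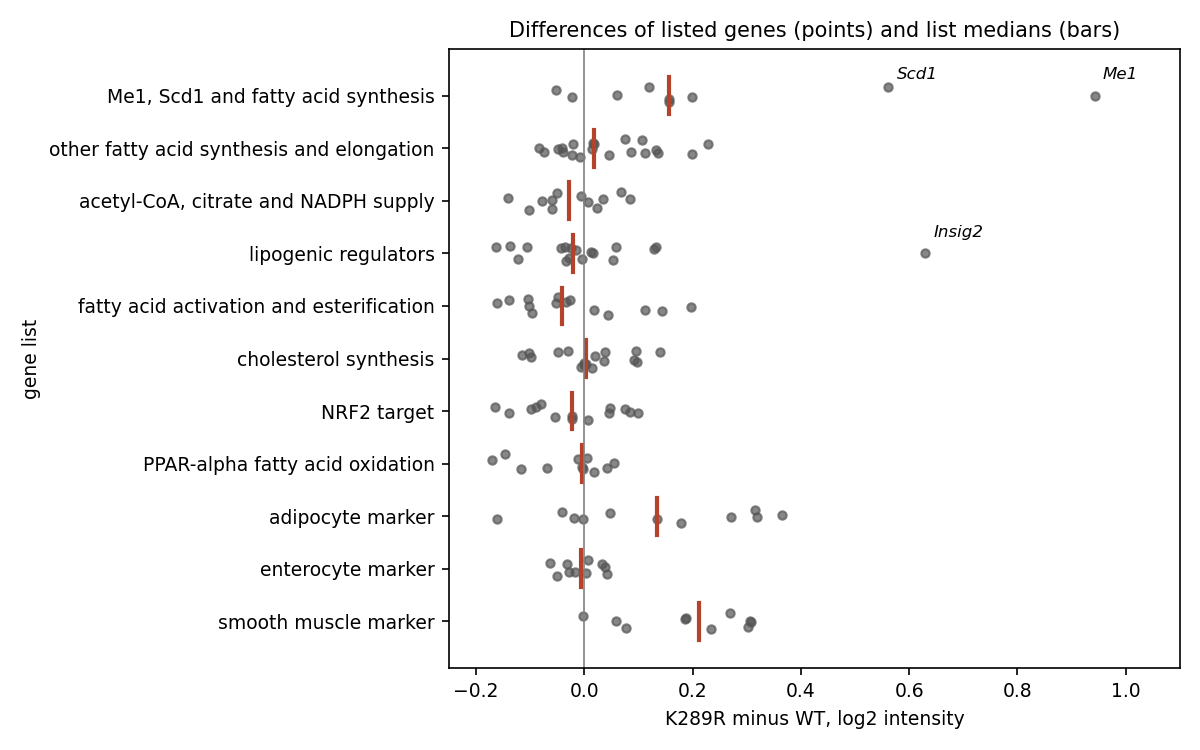
Difference in log2 intensity, K289R minus WT, of every tested gene (points) in the set, in 7 neighbouring pathway lists and in 3 marker lists, with list medians as bars. Me1, Scd1 and Insig2 stand apart at 0.94, 0.56 and 0.63, and the medians of the pathway lists other than the set lie between −0.04 and 0.02.

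Between mice of the same genotype r was above 0 in 28 of 36 pairs of members in K289R (median r 0.49). In WT it was above 0 in 31 of 36 pairs (median r 0.62). The pairs share genes and arrays, and the share over pairs of all tested genes was not computed, so nothing is read from these counts. Of the WT arrays, replicate 1 was the highest for 7 of 9 members and replicate 6 the lowest for 6. Of the K289R arrays, replicate 4 was the highest for 5 members. K289R replicate 5 had the highest Scd1 level of all 14 arrays, 12.15, and yet the lowest K289R level of 6 other members, Acaca, Acly, Elovl5, Elovl6, Fads1 and Fads2.

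**Figure D4:**
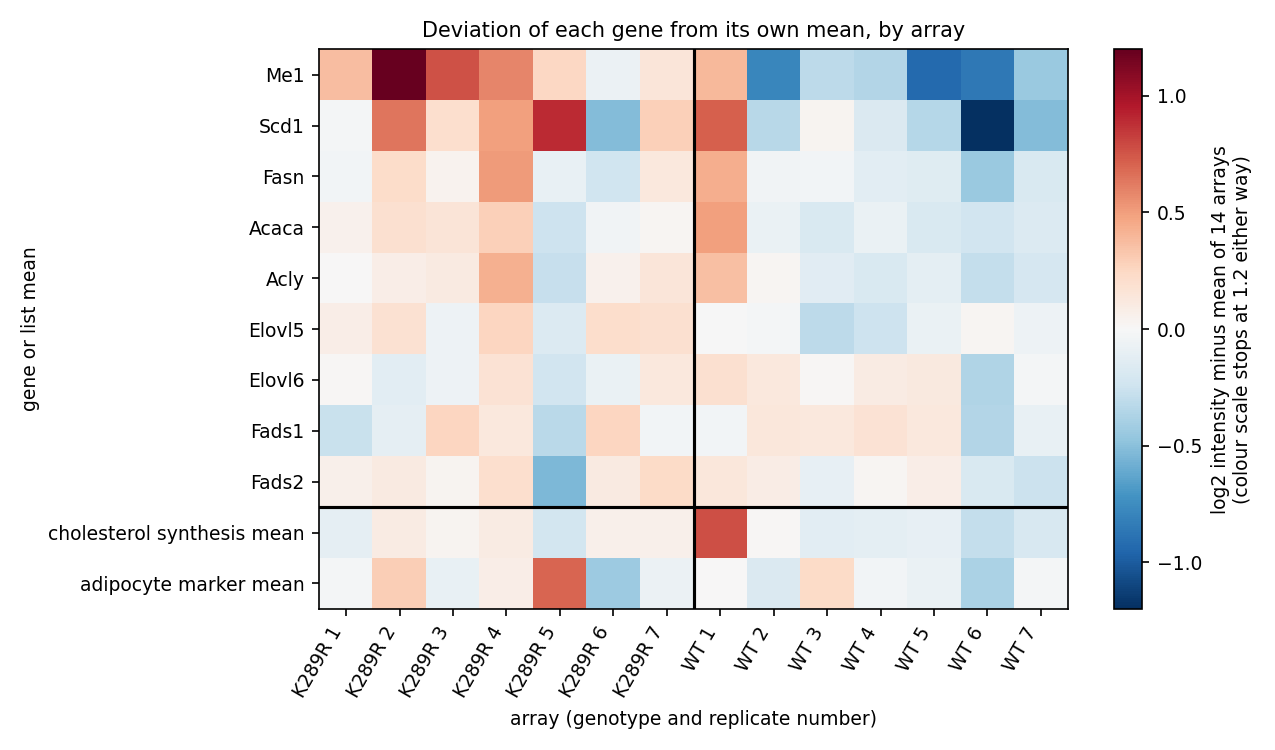
Deviation of each gene, and of 2 list means, from its own mean over 14 arrays (colour, log2 intensity), with K289R arrays left and WT arrays right of the vertical line. WT replicate 1 is raised for most genes and for the cholesterol synthesis mean (10.38), and K289R replicate 5 is raised for Scd1 (12.15) and the adipocyte mean (9.77) but low for most other genes.

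Within each genotype 36 pairs of members were correlated, 72 values in all, and after Benjamini-Hochberg adjustment over these none passed by Pearson's r, with 7 in K289R and 10 in WT at an unadjusted exact permutation p under 0.05. Fasn and Acly had r = 0.76 and rho = 0.79 in K289R (exact permutation p = 0.0583 and 0.0480, adjusted 0.200 and 0.318, n = 7). In WT they had r = 0.95 and rho = 0.82 (exact permutation p = 0.0034 and 0.0341, adjusted 0.121 and 0.307, n = 7). Without the 2 arrays farthest from the Fasn median r was 0.72 in K289R and 0.64 in WT. Scd1 and Fasn had r = 0.49 and rho = 0.43 in K289R (exact permutation p = 0.259 and 0.354, adjusted 0.424 and 0.592, n = 7). In WT they had r = 0.96 and rho = 0.96 (exact permutation p = 0.0089 and 0.0028, adjusted 0.140 and 0.0667, n = 7). Without the 2 arrays farthest from the Scd1 median r was 0.74 in K289R and 0.72 in WT. Whether these correlations differ between the genotypes was not tested. Me1 and Scd1 had r = 0.49 in K289R and 0.81 in WT (exact permutation p = 0.259 and 0.0413, adjusted 0.424 and 0.186, n = 7 each), with rho = 0.39 and 0.82 (exact permutation p = 0.396 and 0.0341, adjusted 0.606 and 0.307). Without the 2 arrays farthest from the Me1 median r was −0.25 in K289R and 0.77 in WT. With each K289R array left out in turn r stayed between 0.15 and 0.79. The value in K289R thus depended on which arrays were kept, and no relation was established there.

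Scd1 is known to be highly expressed in fat cells, and its level was set beside their markers. It correlated positively with their mean in both genotypes, but neither correlation passed the adjustment. Of the 14 adipocyte genes listed 11 were tested, and their summed intensity was 6532 to 16562 in K289R and 6715 to 10874 in WT. Adipoq reached an intensity of at most 357 in K289R and 230 in WT, and Plin1 at most 392 and 292. Most of the sum thus came from other genes of the list, and which cells expressed these was not tested. The mean log2 level of the 11 adipocyte genes was highest on K289R replicate 5, at 9.77, and lowest on K289R replicate 6, at 8.64. These arrays had the highest and the lowest Scd1 of that genotype. Of the K289R arrays, replicate 5 also had the highest smooth muscle mean (11.06) and enterocyte mean (13.43) and the lowest crypt and cycling mean (9.58). In WT the adipocyte mean was highest on replicate 3 (9.31) and Scd1 on replicate 1, and both were lowest on replicate 6. Adipoq, the gene of adiponectin, was 7.43 to 8.48 in K289R and 7.32 to 7.85 in WT, above the filter for dim genes of 6.25. Against the adipocyte mean Scd1 had r = 0.93 and rho = 0.89 in K289R (exact permutation p = 0.0046 and 0.0123, adjusted over 108 values 0.164 and 0.266, n = 7). In WT it had r = 0.73 and rho = 0.71 (exact permutation p = 0.0567 and 0.0881, adjusted 0.361 and 0.476, n = 7). Without the 2 arrays farthest from the Scd1 median r was 0.80 in K289R and 0.72 in WT. Against the cholesterol synthesis mean Scd1 had r = −0.29 in K289R and 0.81 in WT. Whether fat cells are a source of the Scd1 signal was not tested. None of the 11 passed limma's test between the genotypes (0 at an unadjusted p under 0.05), with 7 higher and 4 lower in K289R and a median of 0.13. Fabp4 was at 0.37 (SE 0.228), Adipoq at 0.18 (SE 0.142) and Plin1 at 0.13 (SE 0.153), and the lowest was Pck1 at −0.16. With the adipocyte mean as a covariate the Scd1 difference was 0.37 (SE 0.175), against 0.56 without it, and the Me1 difference 0.86 (SE 0.202), against 0.94. Of 10 smooth muscle genes 9 had the higher mean in K289R (median 0.21, 0 past limma's threshold and 6 at an unadjusted p under 0.05), and with their mean as a covariate Scd1 was at 0.46 (SE 0.317) and Me1 at 1.02 (SE 0.263). Lymphocyte genes had higher means in K289R as well, 7 of 7 tested T cell genes (median 0.26) and 5 of 5 B cell genes (median 0.15), with 0 past limma's threshold and 0 at an unadjusted p under 0.05. The summed T cell intensity was 1885 to 4592 in K289R and 1836 to 4003 in WT, and the summed B cell intensity 991 to 2414 in K289R and 962 to 1942 in WT. The part of lymphocytes, fat cells and muscle cells in the results was not tested. The adipocyte and smooth muscle means differed between the genotypes themselves, by 0.13 and 0.19, so these covariates cannot give the share of such cells.

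Acly followed the cholesterol synthesis genes, which share the SREBP factors with lipogenesis. Against the mean of the 17 tested genes Acly had r = 0.98 and rho = 0.96 in WT (exact permutation p = 0.0004 and 0.0028, adjusted over 108 values 0.0429 and 0.0750, n = 7). In K289R it had r = 0.82 and rho = 0.71 (exact permutation p = 0.0111 and 0.0881, adjusted 0.240 and 0.476, n = 7). Without the 2 arrays farthest from the Acly median r was 0.71 in K289R and 0.96 in WT. The value in WT was the only r of the 108 with an adjusted p under 0.05. By rho the one value was that of Elovl6 in WT, whose order over the 7 arrays was that of the cholesterol synthesis mean (rho = 1.0, exact permutation p = 0.0004, adjusted 0.0429; r = 0.59, exact permutation p = 0.143, adjusted 0.483, n = 7). With each WT array left out in turn the r of Acly stayed between 0.975 and 0.995, where the 6 remaining arrays are too few for a lone pair to pass after adjustment over 108 values. The corresponding r of deviations from the genotype means over 14 arrays was 0.85 for Acly, 0.91 for Acaca and 0.77 for Fasn. Without WT replicate 1 these were 0.84, 0.71 and 0.60. For Me1 the value was 0.62 with all arrays and 0.23 without WT replicate 1. Against the mean of the NRF2 list Me1 had r = 0.82 and rho = 0.96 in WT (exact permutation p = 0.0218 and 0.0028, adjusted over 108 values 0.295 and 0.0750, n = 7). In K289R Me1 had r = 0.42 and rho = 0.50 there (exact permutation p = 0.341 and 0.267, adjusted 0.604 and 0.837, n = 7). With each array left out in turn r was 0.80 to 0.92 in WT and 0.28 to 0.70 in K289R. With the cholesterol synthesis mean as a covariate, a fit chosen after seeing the data, the Me1 difference was 0.93 (SE 0.168) and the Scd1 difference 0.55 (SE 0.214). Against the enterocyte mean the r of deviations was −0.68 for Acly, −0.65 for Acaca, −0.76 for Elovl5 and −0.69 for Fads2. For the other members it ran from −0.37 (Fasn) to 0.04 (Scd1). Within a genotype no correlation with the enterocyte mean passed the adjustment.

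**Figure D5:**
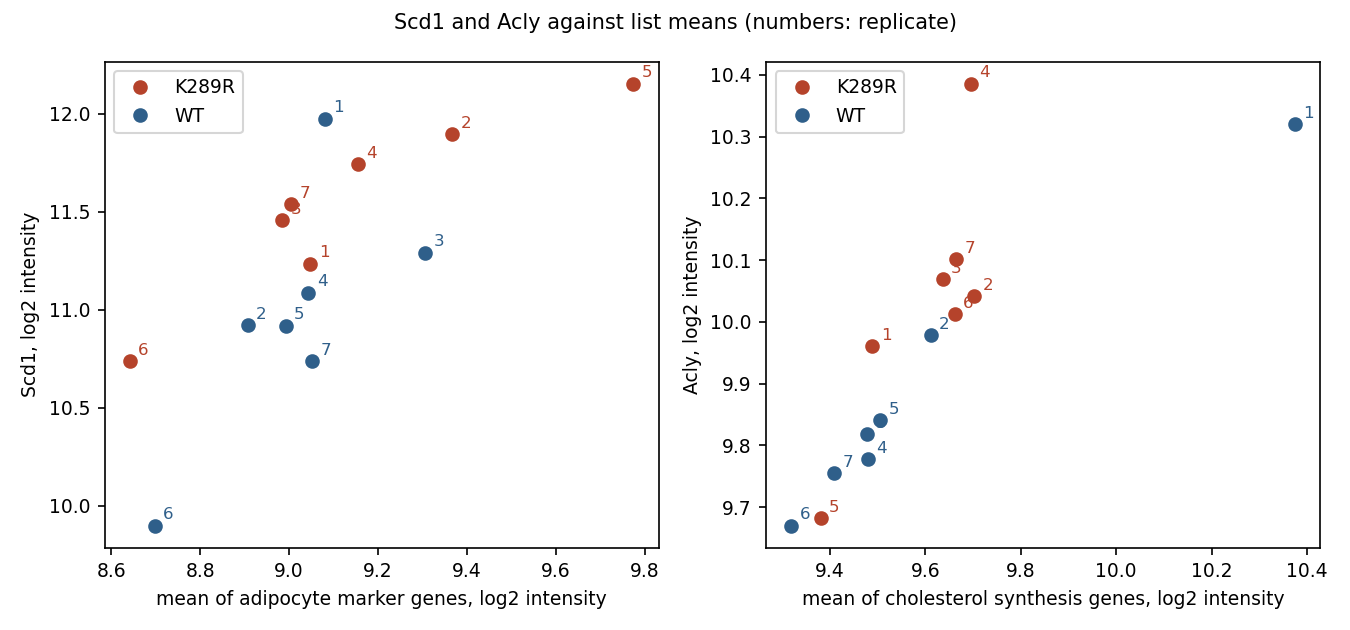
Log2 intensity of Scd1 against the mean of 11 adipocyte genes (left) and of Acly against the mean of 17 cholesterol synthesis genes (right), 1 point per array with its replicate number, K289R in red and WT in blue. K289R replicate 5 is at the upper right and replicate 6 of both genotypes at the lower left for Scd1, and WT replicate 1 stands apart at a mean of 10.38 on the right.

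Likeness over all tested genes was measured by Pearson's r of deviations from genotype means over the 14 arrays, whose Fabp6 and adipocyte levels differed as given above. The non-members most like Scd1 were Lpl (0.89), Orm1 (0.89), Mrap (0.88), Mapre3 (0.85) and Rcan1 (0.84), and the 100 genes most like it included 6 of the 11 adipocyte genes and 1 of the 17 cholesterol synthesis genes. Those most like Fasn were Mta3 (0.90), Spats2 (0.85), Mrap2 (0.85), Napepld (0.84) and Reep4 (0.84). The 100 most like Fasn included 5 members, Acly, Acaca, Scd1, Elovl6 and Me1, with 11 cholesterol synthesis genes and 0 adipocyte genes. Those most like Me1 were Acox2 (0.83), Etnppl (0.82), Kif16b (0.82), U2af1 (0.81) and Mrap (0.81), and its first 100 included 3 members, Acaca, Fasn and Scd1. WT replicate 1 decided much of this. Without it the 100 genes most like Fasn included 3 members and 0 cholesterol synthesis genes, those most like Me1 included 0 members, and those most like Scd1 still included 7 adipocyte genes. Without K289R replicate 5, by contrast, those most like Scd1 included 4 members, 6 adipocyte genes and 7 cholesterol synthesis genes.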

How the data were processed

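Jejunal RNA of 14 mice was measured on Affymetrix whole-transcript arrays, and genotype and replicate number come from the sample titles. Per the labels' protocols, RNA was extracted with Trizol and 100 ng amplified. The deposited values are linear intensities of 41345 probe sets from 7.40 to 20050.3, made with Affymetrix Expression Console per the submitters' processing notes. The sources used here give no version, summarisation or normalization. The array medians are nearly equal, so any global shift between genotypes is removed, and background left in the values compresses differences of dim genes.

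Intensities were log2-transformed and not normalized further, as the design, written for log2 values, provided. Of the probe sets 23521 had 1 gene symbol, 1814 several and 16010 none here. A gene took its probe set with the highest mean. Genes with a mean log2 below 6.25 (25th percentile over probe sets) were left out. Differences are K289R minus WT from limma 3.58.1 in R 4.3.3 (lmFit, eBayes, 2-sided), with Benjamini-Hochberg adjustment over all 18010 genes. Any 2 arrays differed by a root mean square of at least 0.24 log2, so none is a copy of another, and each was counted as a sample. The mice were housed 5 per cage, and which of them shared a cage is not given, so cage could not be modelled. The labels call the mice biological replicates. The number of arrays limits the precision. Correlations have 2-sided exact permutation tests over all pairings. The steps were tested on simulated data. The members and lists were chosen with earlier results of these data known. Named genes are the members, up to 3 of each list with the smallest p and any past the threshold, 11 genes fixed by name, and the 5 genes most like Me1, Scd1 and Fasn. Fabp6 was added as a check of position along the gut. Titles number the replicates alike in both genotypes, but the deviations of arrays with the same number correlated with r from −0.15 to 0.17, so they were not treated as pairs. The alternatives are named in the closing section.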

Additional observations from a re-analysis of the deposited data

Results flagged for a closer look

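For the 9 members, the 17 list means and the 11 genes fixed by name, each genotype was searched for an array far from the other 6, which made 74 groups. Chance alone marks about 1 group in 20, and 6 were marked. Acaca was at 9.44 on WT replicate 1, with 8.72 to 8.87 on the other WT arrays. The same array had a cholesterol synthesis mean of 10.38, with 9.32 to 9.61 on the others, a distal small intestine mean of 11.48, with 8.30 to 9.50 on the others, and a Mlxipl level of 11.35, below the 11.52 to 11.57 of the others. Elovl6 was at 11.19 on WT replicate 6, with 11.53 to 11.75 on the other WT arrays. Fads2 was at 11.27 on K289R replicate 5, with 11.85 to 12.04 on the other K289R arrays.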

How the results depend on the processing

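Against 8 genes past the threshold, 14 passed with array weights, 16 with the adipocyte mean as a covariate, 5 without the arrays with Fabp6 above 8, and 4 to 14 with 1 array left out. With a replicate block 0 passed by limma (1465 at an unadjusted p under 0.05), and the labels do not pair the arrays. The calls were 3 higher and 5 lower, 4 and 8 with quantile normalization, and 3 and 7 with each array shifted to 1 median. The number of members past the threshold stayed at 0 except without WT replicate 1, where it was 1, Me1 (0 to 1 over these fits). The number of members with a higher mean was 7 or 8 in all 28 alternatives. Scd1 differences ran from 0.37 to 0.73 and Elovl5 from 0.16 to 0.24. Of 177 listed genes outside the set 1 passed, Insig2, and 0 did with the replicate block, with the smooth muscle covariate and without the arrays with Fabp6 above 8 (limma, 18, 26 and 12 at an unadjusted p under 0.05). With 1 array left out 0 to 1 passed, Sycn in place of Insig2 without WT replicate 7. Between members 1 pair passed with quantile normalization, Elovl5 with Fads2 in K289R (r = 0.84, exact permutation adjusted p = 0.0143), against 0 otherwise. Of the correlations with list means 0 to 1 passed with 1 array left out; 6 arrays cannot carry a lone pair past the adjustment, and the r of Acly with the cholesterol synthesis mean in WT stayed at 0.975 to 0.995. The causes were not tested. No member could be checked by a second probe set.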
